A study of Mus musculus with 4 samples.

Results

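Kit and 7 genes tied to entry into differentiation or meiosis (Dmrt1, Dmrtb1, Rhox13, Rec8, Sycp3, Meioc and Prdm9) were followed in single-cell RNA-Seq of A_undiff, the undifferentiated spermatogonia of the mouse testis. The genes were picked by symbol, with earlier results of these data known, and all 8 were among the 27514 genes listed for every library. A_undiff came from C57BL/6J wild-type males of 6 to 8 weeks, either untreated (CTRL) or at D10 after a single busulfan dose of 10 mg/kg (BU). Busulfan is an alkylating drug that depletes spermatogonia, and the surviving A_undiff rebuild the germline. Both groups went through the same sort for surface E-cadherin and CD49f without c-KIT, so the gate removed cells with KIT protein on their surface. Kit RNA was not measured by the gate, but cells with much of it may have been removed through the protein. The paper reports that far more of the E-cadherin-positive cells lacked c-KIT after BU than in controls. The gate thus removed unlike parts of the 2 groups, and its effect on Kit levels was not tested. The paper also set aside a cluster with high Kit, while all clusters were kept here. The study ran 2 experiments with a library of either group in both, and every library pooled 3 mice, so n = 2 libraries per group. The control mice were not described as vehicle-injected.

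KIT is the receptor for stem cell factor, and spermatogonia gain it when they leave the undifferentiated state under retinoic acid. STRA8 is the retinoic acid-induced factor of that step and later of meiosis, and GFRα1 is the GDNF receptor of spermatogonial stem cells (SSCs). DMRT1 restrains meiotic entry in spermatogonia, DMRTB1 (also called DMRT6) acts in the mitosis-to-meiosis transition, and RHOX13 is a homeobox factor of differentiating germ cells encoded on the X chromosome. REC8 is a meiotic cohesin subunit, SYCP3 builds the chromosome axis, MEIOC keeps early spermatocytes in the meiotic programme and PRDM9 marks recombination hotspots.

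On GRCm38 (GENCODE M21) Kit lies on chromosome 5 from 75574916 to 75656722, Dmrt1 on chromosome 19 from 25505618 to 25604329, Dmrtb1 on chromosome 4 from 107676290 to 107684230 and Rhox13 on chromosome X from 38121219 to 38129967. Rec8 lies on chromosome 14 from 55618037 to 55625395, Sycp3 on chromosome 10 from 88459569 to 88473236, Meioc on chromosome 11 from 102663716 to 102682237 and Prdm9 on chromosome 17 from 15543079 to 15564354. All are protein-coding, Dmrtb1 and Prdm9 on the minus strand and the rest on the plus strand. Sycp3 overlaps Chpt1 on the opposite strand, and none of the other 7 overlaps a gene that the libraries list.

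Promoter sequence was at hand for 7 of the 8 genes, all but Dmrt1, as 10 windows of 250 bases before to 50 bases after an annotated start (RefSeq, GRCm38.p6). They were searched on both strands for CACGTG, an E-box bound by MAX dimers, for CANNTG, which includes CACGTG, and for TTCCCGC, the site type of E2F6. CACGTG was found only at Sycp3, which held it 2 times, against 7.15% of all 32851 promoter windows with at least 1. TTCCCGC, in 4.60% of all windows, was found at Sycp3, Meioc and 1 of the 2 Prdm9 starts. CANNTG, in 72.3% of all windows, was in every window of the members but that of Meioc. The stretches that hold CACGTG or TTCCCGC are shown because TTCCCGC is in a window of 3 of the 4 meiotic genes and neither motif is in those of Kit, Dmrtb1, Rhox13 and Rec8. Capitals mark a match, and TTCCCGC on the opposite strand reads GCGGGAA.
Sycp3 (chr10:88459410-88459579, plus strand, 177 to 8 bases before the start): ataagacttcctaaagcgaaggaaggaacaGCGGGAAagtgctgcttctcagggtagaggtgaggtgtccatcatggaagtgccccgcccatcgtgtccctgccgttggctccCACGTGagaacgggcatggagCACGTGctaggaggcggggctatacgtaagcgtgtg
Meioc (chr11:102665335-102665393, plus strand, 250 to 192 bases before the start): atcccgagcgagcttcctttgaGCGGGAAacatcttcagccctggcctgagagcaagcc
Prdm9 (chr17:15564365-15564431, minus strand, 77 to 11 bases before the start): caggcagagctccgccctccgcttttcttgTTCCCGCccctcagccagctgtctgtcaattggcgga

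Cells were used that had more than 1000 genes detected and less than 20% of UMIs from mitochondrial genes. They numbered 3101 (CTRL 1), 1120 (CTRL 2), 2008 (BU 1) and 1264 (BU 2). A UMI is a molecular tag that counts 1 RNA molecule once. Median UMIs per cell were 8066 and 9857.5 in the CTRL and BU libraries of experiment 1 and 30931 and 34176.5 in those of experiment 2, so shares of cells with a UMI were compared in cells sampled down to 5000 UMIs each (called thinned). The libraries of experiment 2 shared 70 cell barcodes, and in those pairs the shallower cell held a median of 1.4% of the UMIs of the deeper. The other pairs of libraries shared at most 7. Results over all cells are therefore given with and without cells of shared barcodes. Defining germ cell genes were present in all libraries (Zbtb16 at 103 to 213 CPM, the UMIs of a gene per 1000000 UMIs of the library, and Ddx4 at 231 to 322 CPM). Spermatid markers summed to 2825 and 17092 CPM in CTRL 1 and CTRL 2 and to 1018 and 8792 CPM in BU 1 and BU 2, with none of the 7 at 0. Somatic markers (13 genes) summed to 25.1 to 280 CPM, with up to 3 at 0.

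UMIs were summed over the passing cells of each library and tested with the edgeR quasi-likelihood test with Benjamini-Hochberg adjustment over all genes. With condition as the only term, 0 of the 8 genes passed, beside 0 of 17354 genes in all (0%). At an unadjusted p under 0.05 the same fit gave 926 of the 17354 genes. If no gene differed, a share of 0.05 would be under that threshold. DESeq2 called 112 of 16294 genes after adjustment. The experiments differed in kit and sequencing lane and each held 1 library per group, so the experiment was also fitted as a replicate block. With this block 258 genes passed (1.49%) and Kit was the only one of the 8 among them. Without the cells of shared barcodes, 1557 genes passed with the block (9.14%), and Kit, Rhox13 and Prdm9 were among them. All 3 were higher in BU. In a sum over cells, more cells of a type and more RNA per cell cannot be told apart.

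**Figure D1:**
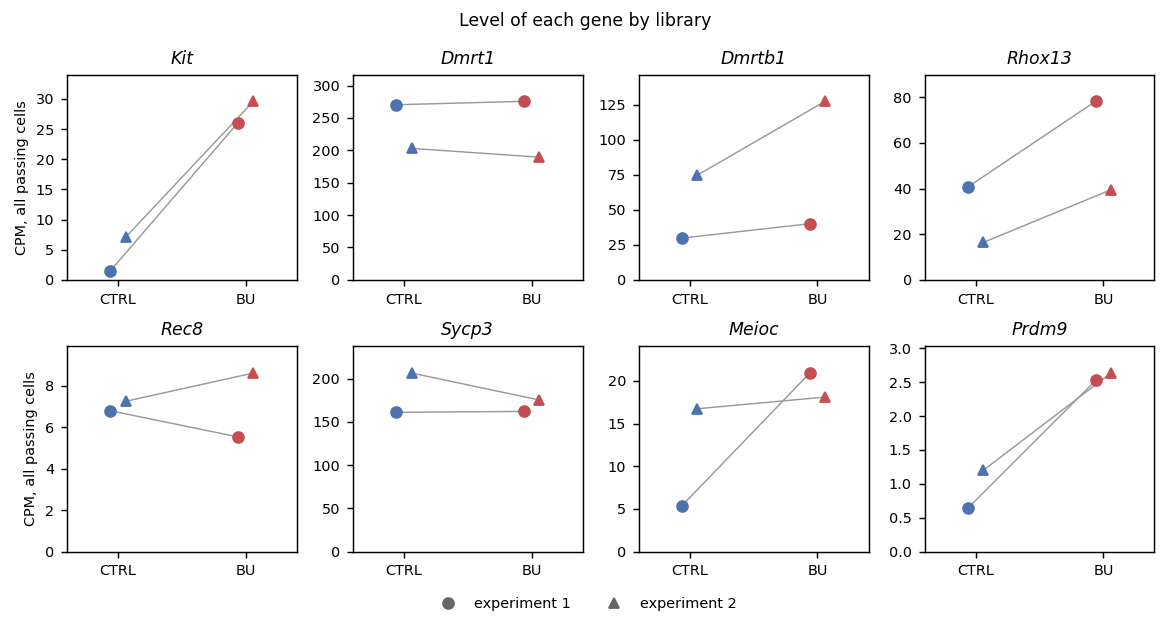
Level of each gene in CPM (linear axes from 0) summed over the passing cells of each library, with a line joining the CTRL and BU library of 1 experiment (circle: experiment 1, triangle: experiment 2). Kit sits at 1.51 and 7.09 CPM in CTRL and at 26.1 and 29.6 CPM in BU, while the groups overlap for Dmrt1, Dmrtb1, Rhox13, Rec8 and Sycp3.

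Summed over all passing cells of the sort, with no cluster set aside, Kit was more abundant at D10 after BU in both experiments. Its level was 1.51 CPM in CTRL 1 and 7.09 CPM in CTRL 2, and 26.1 CPM in BU 1 and 29.6 CPM in BU 2. Both BU libraries were above both CTRL libraries, and the CTRL libraries differed from each other more than the BU libraries did. With n = 2 per group, groups without overlap give p = 0.3333 in an exact permutation test, the smallest possible. Lack of overlap is thus a description only throughout, given without its share over all genes. In means, Kit was at 4.30 ± 3.95 CPM (SD, n = 2) in CTRL and 27.8 ± 2.49 CPM (SD, n = 2) in BU. The log2 fold change was 2.74 ± 0.79 (SE, edgeR adjusted p = 0.874) with condition only. With the replicate block it was 3.03 ± 0.49 (SE, edgeR adjusted p = 0.0393), so Kit rose in that fit. The block call was lost with doublets removed (3.00, edgeR adjusted p = 0.0694) and with cells under 10% mitochondrial UMIs (3.02, edgeR adjusted p = 0.0639). DESeq2, with condition only, called Kit (2.71, adjusted p = 0.0338). Without shared barcodes it was 2.86 ± 0.38 (edgeR adjusted p = 4.71e-07, with the block). With condition only, the estimate went to 4.18 without CTRL 2 and to 2.01 without CTRL 1. Within experiments BU exceeded CTRL by 17.3 times in experiment 1 and by 4.17 times in experiment 2. Over the same libraries progenitor markers (6 genes, none at 0) summed to 490 and 413 CPM in CTRL and 108 and 90.8 CPM in BU, and mitotic markers (7 genes, none at 0) to 457 and 509 CPM in CTRL and 1094 and 1020 CPM in BU, and their part in the Kit level was not tested.

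The share of cells with a Kit UMI moved with the level. After thinning, 22 of 2825 cells (0.779%, exact 95% interval 0.489% to 1.18%) held one in CTRL 1 and 32 of 1006 (3.18%, 2.19% to 4.46%) in CTRL 2. In BU 1 it was 219 of 1928 cells (11.4%, 9.98% to 12.9%) and in BU 2 it was 116 of 1169 (9.92%, 8.27% to 11.8%). The intervals cover counting error only. The BU mean exceeded the CTRL mean by 8.66 percentage points, and the exact permutation test over the 4 libraries, two-sided, gave p = 0.3333, the smallest it can give with n = 2 per group. Without thinning the shares were 1.23%, 10.8%, 17.3% and 30.5% in the same order of libraries. Most Kit-positive cells carried a single Kit UMI at this depth, and cells with at least 2 made up 0.0354% and 0.398% of CTRL 1 and CTRL 2 and 2.13% and 2.65% of BU 1 and BU 2. In the spermatid-like cluster, at the same 5000 UMIs, 0 of 44 (CTRL 1), 1 of 96 (CTRL 2) and 0 of 80 cells (BU 2) held a Kit UMI, and in the larger somatic-like cluster 0 of 50 BU 2 cells did. A count of 0 in the 50 somatic-like cells has an exact upper limit of 7.11%, so background in a cluster was not measured finely.

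**Figure D2:**
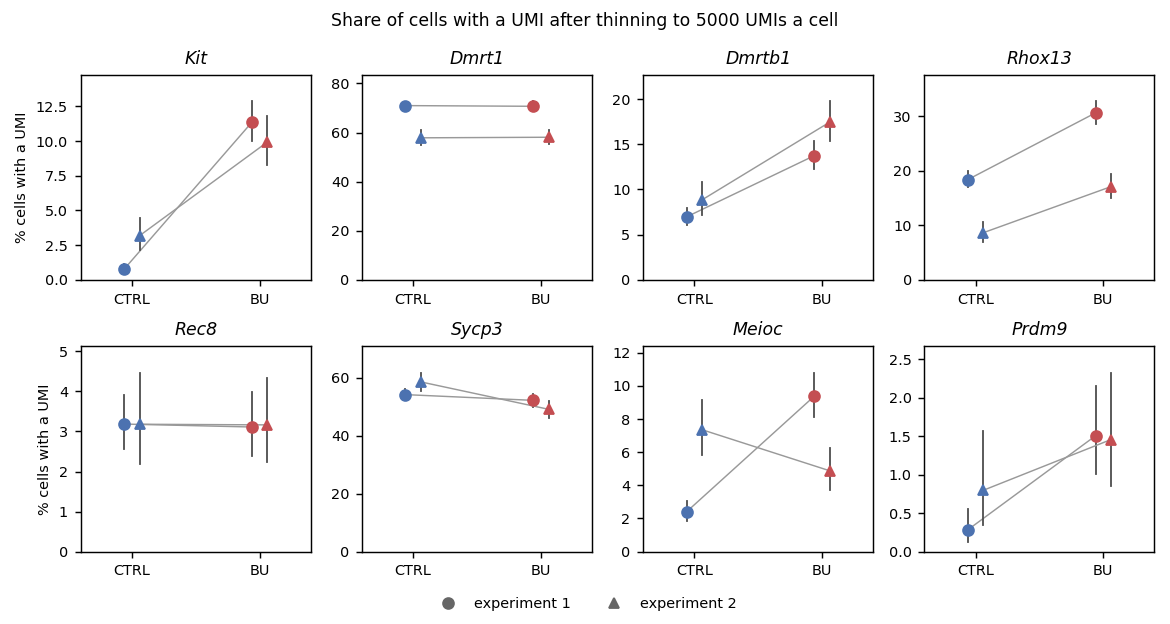
Share of cells with at least 1 UMI of each gene after thinning to 5000 UMIs per cell (percent, linear axes from 0), by library, with exact binomial 95% intervals and lines joining the libraries of 1 experiment. Kit, Dmrtb1, Rhox13 and Prdm9 go up from CTRL to BU in both experiments, and Sycp3 goes down in both. The Meioc lines cross, from 2.41% to 9.39% in experiment 1 and from 7.36% to 4.88% in experiment 2.

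The passing cells formed 8 clusters, made with the 8 genes, Stra8, Gfra1 and all markers left out of the clustering. They were named from markers as progenitor-like (cluster 0), cycling SSC-like (1), SSC-like (3), differentiating-like (4), spermatid-like (5) and somatic-like (6 and 7, where cluster 7 led with the Leydig genes Cyp17a1 and Insl3), and cluster 2 remained unnamed. In cluster 2 the spermatocyte markers had the highest mean (0.94 on the log2 scale). Its cells were shallow in experiment 2, at 0.216 (CTRL 2) and 0.554 (BU 2) of the median UMIs of the library. The depth in CTRL 2 and the lack of such markers among its 10 leading genes kept it unnamed. None of the differentiating-like markers was among the 10 leading genes of cluster 4, where Tbx1, Cited1 and Kit were, so its name rests on the mean of its 7 markers. Pooled over libraries, Kit was at 124 CPM in cluster 4, at 65.7 CPM in cluster 7 and at 0.718 to 14.9 CPM in the other 6. All 24 Kit UMIs of cluster 7 came from its 9 cells in CTRL 2, 8.82% of that library's Kit UMIs. Cluster 4 held 38 (CTRL 1), 15 (CTRL 2), 294 (BU 1) and 128 (BU 2) cells, with 15%, 28.7%, 59.0% and 42.8% of each library's Kit UMIs.

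Kit was also higher in BU among cells outside cluster 4. In the progenitor-like cluster it was at 1.51 CPM in CTRL 1, 3.58 CPM in CTRL 2, 11.9 CPM in BU 1 and 21.2 CPM in BU 2, with no overlap of the groups. There it rose by 2.65 ± 0.37 on the log2 scale with the replicate block (edgeR adjusted p = 9.27e-09), in a cluster where 10.4% of genes passed. Gfra1 rose there as well, from 9.27 and 11.97 CPM in CTRL to 51.1 and 70.6 CPM in BU. Its log2 fold change was 2.44 and that of Stra8 1.73 (edgeR adjusted p = 1.81e-12 and 1.17e-08 with the block). Cells of this cluster thus differed between the groups beyond Kit, and the part of that in the Kit level was not tested. Gfra1 changed by 1.13 in the cycling SSC-like and 0.29 in the SSC-like cluster (edgeR adjusted p = 0.0207 and 0.644 with the block). In the cycling SSC-like cluster Kit was at 1.60, 6.89, 10.5 and 22.8 CPM in the same order of libraries. There Kit rose by 2.11 ± 0.31 on the log2 scale with the block (edgeR adjusted p = 0.00317, 2.87% of genes passed). Without shared barcodes Kit in BU 2 was at 14.7 CPM in the progenitor-like and 17.1 CPM in the cycling SSC-like cluster. The rises were then 2.44 ± 0.39 and 1.83 ± 0.34 (edgeR adjusted p = 0.000142 and 0.0148 with the block). In the SSC-like cluster Kit was at 0.773 and 1.38 CPM in CTRL and at 6.75 and 8.45 CPM in BU (2.84 ± 0.60, edgeR adjusted p = 0.00739 with the block, 2.37% of genes passed), on 2, 4, 19 and 46 UMIs. The unnamed cluster 2 gave 2.63 ± 0.40 (edgeR adjusted p = 7.17e-08 with the block, 8.57% of genes passed). With condition only, none of these passed. Over all cells but those of cluster 4, Kit was at 1.30 and 5.13 CPM in CTRL and at 12.3 and 18.7 CPM in BU, and rose by 2.54 ± 0.39 on the log2 scale (edgeR adjusted p = 0.0271 with the block, 1.72% of genes passed). The part of free RNA from Kit-high cells in these levels was not tested. In the spermatid-like cluster Kit was at 0 CPM in CTRL 1, at 2.50 CPM in CTRL 2 and at 5.61 CPM in BU 2.

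Within cluster 4 a difference in Kit was not detectable. Its level was 19.5 CPM in the 38 cells of CTRL 1 (6 UMIs), 114 CPM in BU 1 and 135 CPM in BU 2. The 15 cells of CTRL 2 were below the 20 cells set for a level. Their 78 Kit UMIs came to 135 CPM, far above CTRL 1 and near BU 2. The fit, which included these cells, gave a log2 fold change of 0.82 ± 0.35 with the block (edgeR adjusted p = 0.359).

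**Figure D3:**
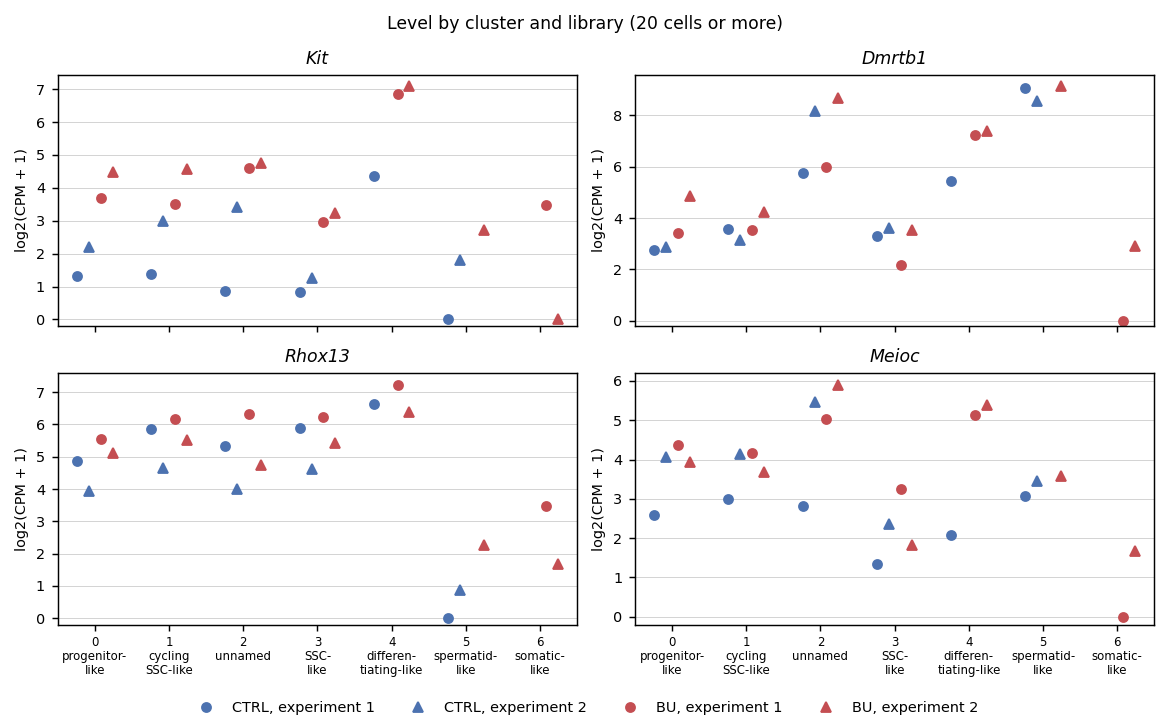
Level of Kit, Dmrtb1, Rhox13 and Meioc by cluster and library as log2(CPM + 1), for every cluster and library with at least 20 cells (blue: CTRL, red: BU, circle: experiment 1, triangle: experiment 2). In clusters 0 to 3 both BU values of Kit lie above both CTRL values, and Dmrtb1 reaches its highest levels in the spermatid-like cluster, at 534 CPM in CTRL 1, 375 CPM in CTRL 2 and 558 CPM in BU 2.

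Kit-positive cells more often carried Stra8 and less often Gfra1. Of the 22 Kit-positive cells of CTRL 1, 59.1% held a Stra8 UMI after thinning, against 15.8% of its Kit-negative cells. The figures were 37.5% against 9.86% in CTRL 2, 58.4% against 29.1% in BU 1 and 38.8% against 20.04% in BU 2. The log2 odds ratio of holding both was thus 2.92 and 2.47 in CTRL and 1.77 and 1.34 in BU, above 0 in 4 of 4 libraries (mean 2.13 ± 0.71, SD). For Gfra1 the log2 odds ratio was -1.13, -0.04, -2.06 and -1.32 in CTRL 1, CTRL 2, BU 1 and BU 2. In BU 1, 10.0% of Kit-positive cells held a Gfra1 UMI against 32.2% of Kit-negative cells. The CTRL values rest on 1 and 4 cells with both UMIs. Cells with Kit, Stra8 and Gfra1 together numbered 0, 1, 2 and 1 in CTRL 1, CTRL 2, BU 1 and BU 2. Cells with Kit and Stra8 but no Gfra1 UMI were 0.460% and 1.09% of CTRL and 6.54% and 3.76% of BU cells. When clusters 0, 1 and 3 alone were used, the log2 odds ratio of Kit with Gfra1 was -0.58, 0.53, -0.17 and -0.01 in that order, and that with Stra8 remained above 0 in all 4 libraries (3.06, 1.07, 1.22 and 0.81).

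**Figure D4:**
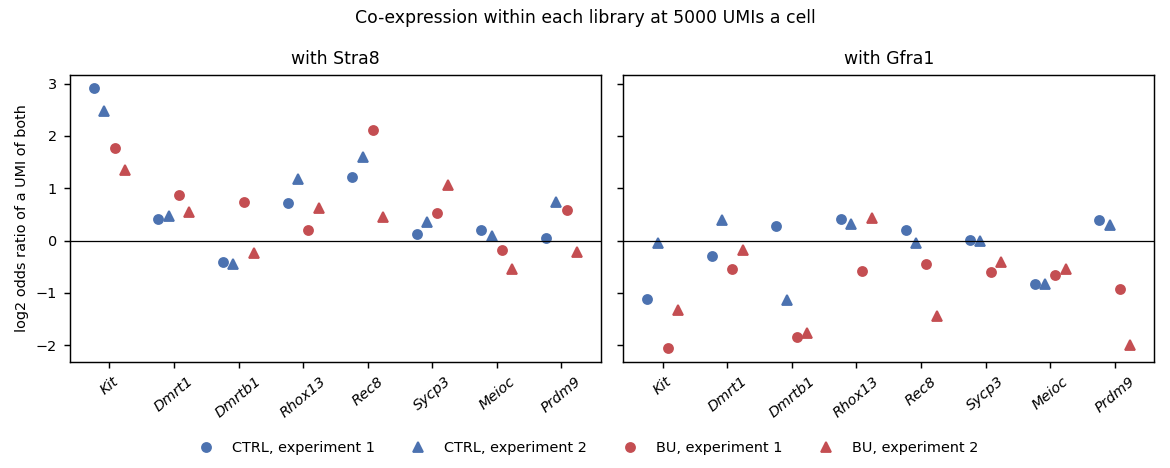
Log2 odds ratio that a cell holds a UMI of a gene and of Stra8 (left) or Gfra1 (right), per library after thinning to 5000 UMIs, with 0.5 added to each count of cells (blue: CTRL, red: BU, circle: experiment 1, triangle: experiment 2). Kit and Rec8 lie above 0 with Stra8 in all 4 libraries, Kit from 1.34 to 2.92 and Rec8 from 0.46 to 2.11.

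Among cells that carried Gfra1, the call for Kit depended on which cells were used. In cells with a Gfra1 UMI (without thinning), Kit was at 0.997 CPM in CTRL 1, 5.97 CPM in CTRL 2, 7.34 CPM in BU 1 and 21.6 CPM in BU 2. The log2 fold change was 2.23 ± 0.35 with the block (edgeR adjusted p = 0.00184, 3.15% of genes passed), and Kit was the only one of the 8 that passed. Without shared barcodes it was 1.87 ± 0.39 (edgeR adjusted p = 0.0950 with the block), so the call was lost. It was also lost in cells with a Gfra1 UMI after thinning (2.03 ± 0.38, edgeR adjusted p = 0.281 with the block). In cells with a Stra8 UMI, Kit was at 4.72, 14.9, 41.3 and 45.9 CPM in the same order of libraries. No gene passed there with the block (0% of 14547, with Kit at 2.25 ± 0.40 and edgeR adjusted p = 0.170). Kit was past the threshold without shared barcodes (2.22 ± 0.38, edgeR adjusted p = 0.0453 with the block), where 51 of 14342 genes passed as higher and 145 as lower. It was not past the threshold after thinning (1.84 ± 0.42, edgeR adjusted p = 0.0815 with the block). Without the block 0 of the 8 passed in either set of cells.

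Dmrt1 did not follow Kit. It was at 270 CPM in CTRL 1, 203 CPM in CTRL 2, 276 CPM in BU 1 and 189 CPM in BU 2, so the libraries of 1 experiment were alike and the groups overlapped. Its log2 fold change was -0.01 ± 0.17 with the replicate block (edgeR adjusted p = 0.983). Without shared barcodes it was -0.11 ± 0.25 (edgeR adjusted p = 0.855 with the block). Between 57.9% and 71.0% of cells held a Dmrt1 UMI after thinning. Pooled, Dmrt1 was at 198 to 355 CPM in clusters 0 to 4, highest in the differentiating-like cluster, and at 16.6 CPM in the spermatid-like cluster. Cells with Dmrt1 carried Stra8 more often in 4 of 4 libraries (log2 odds ratio 0.42 to 0.88), but the sign was mixed within clusters 0, 1 and 3 (0.19, -0.07, 0.46 and -0.21 for CTRL 1, CTRL 2, BU 1 and BU 2).

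Dmrtb1 was found in several clusters, most of all in the spermatid-like one. It was at 29.8 CPM in CTRL 1, 74.9 CPM in CTRL 2, 40.2 CPM in BU 1 and 128 CPM in BU 2, with overlapping groups. The libraries of experiment 2, which had the most spermatid markers, were highest. Without shared barcodes, Dmrtb1 was at 29.9 CPM in CTRL 1, 30.7 CPM in CTRL 2, 40.1 CPM in BU 1 and 70.3 CPM in BU 2. The groups did not overlap there, and CTRL 2 was below BU 1. With all cells the log2 fold change of Dmrtb1 was 0.63 ± 0.22 with the block (edgeR adjusted p = 0.193). Without shared barcodes it was 0.73 ± 0.28 (edgeR adjusted p = 0.100 with the block). The spermatid-like cluster, 3.30% of cells, held 48.6% of all Dmrtb1 UMIs, and pooled levels were 476 CPM there, 207 CPM in cluster 2 and 148 CPM in the differentiating-like cluster, against 8.95 to 13.5 CPM in clusters 0, 1 and 3. By library the spermatid-like share of Dmrtb1 UMIs was 45.4% and 62.7% in CTRL, 11.3% in BU 1 and 47.6% in BU 2. In BU 1 the differentiating-like cluster held 49.5% of them and was above cluster 2 (147 against 61.7 CPM). Without the somatic-like and spermatid-like clusters, Dmrtb1 was at 16.7 CPM in CTRL 1, 32.5 CPM in CTRL 2, 36.2 CPM in BU 1 and 76.5 CPM in BU 2. The groups no longer overlapped, and Dmrtb1 rose by 1.13 ± 0.24 on the log2 scale with the block (edgeR adjusted p = 0.00862). In that fit 9.46% of genes passed, with Kit, Dmrtb1, Rhox13 and Prdm9 among them. Without shared barcodes as well, 877 of 16085 genes passed with the block. Kit, Dmrtb1 and Rhox13 were among them and Prdm9 was not (1.47, edgeR adjusted p = 0.0697 with the block).

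Inside the differentiating-like cluster Dmrtb1 was at 42.3 CPM in CTRL 1 (38 cells), 147 CPM in BU 1 and 166 CPM in BU 2, and the 15 CTRL 2 cells held 36 UMIs. It rose by 1.56 ± 0.35 on the log2 scale with the block (edgeR adjusted p = 0.00218), the only one of the 8 that passed there, beside 1.25% of all genes. Stra8, a marker used to name this cluster, was at 696 CPM in its CTRL 1 cells, 423 CPM in BU 1 and 241 CPM in BU 2. The CTRL 2 cells held 256 Stra8 UMIs. The log2 fold change of Stra8 there was -0.82 ± 0.24 (edgeR adjusted p = 0.0537 with the block). The part of unlike cells in the Dmrtb1 level was not tested. At 5000 UMIs, 4 of 38 CTRL 1 cells of the cluster (10.5%, exact 95% interval 2.94% to 24.8%) held a Dmrtb1 UMI, against 49.7% in BU 1 and 57.8% in BU 2. In the progenitor-like cluster Dmrtb1 was at 5.70 and 6.36 CPM in CTRL and at 9.80 and 27.8 CPM in BU (log2 fold change 1.48 ± 0.34, edgeR adjusted p = 0.000760 with the block). Over all cells, the thinned share with a Dmrtb1 UMI was 6.97% and 8.85% in CTRL and 13.7% and 17.5% in BU, without overlap, and the exact permutation p was 0.3333, the smallest possible. Dmrtb1 and Gfra1 were held together less often in 3 of 4 libraries (log2 odds ratio -1.14, -1.85 and -1.76 in CTRL 2, BU 1 and BU 2), and 0.29 in CTRL 1. Within clusters 0, 1 and 3 the values were 0.11, 0.58, 0.28 and -0.06 for CTRL 1, CTRL 2, BU 1 and BU 2, so the negative sign was not seen there in 3 of 4 libraries.

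Rhox13 was higher in BU within each experiment. Its level was 40.8 CPM in CTRL 1 and 78.2 CPM in BU 1, and 16.4 CPM in CTRL 2 and 39.5 CPM in BU 2. BU 2 lay just below CTRL 1, so the groups overlapped. The log2 fold change was 1.13 ± 0.24 with the block (edgeR adjusted p = 0.0697). It was 1.02 ± 0.28 without shared barcodes (edgeR adjusted p = 0.0112 with the block), and Rhox13 rose in that fit. With condition only it was 0.28 without BU 1 and 1.91 without CTRL 1, against 1.06 with all libraries. Leaving out 1 library moved the difference in thinned shares between 3.58 (without BU 1) and 17.1 percentage points (without BU 2). The share of cells with a Rhox13 UMI after thinning was 18.4% (CTRL) and 30.7% (BU) for experiment 1 and 8.65% (CTRL) and 17.1% (BU) for experiment 2. In the spermatid-like cluster that share was 0% in CTRL 1 and CTRL 2 and 1.25% in BU 2. Among germ cell clusters Rhox13 was highest in the differentiating-like cluster (104 CPM pooled) and between 24.7 and 48.0 CPM in clusters 0 to 3. It rose in the progenitor-like cluster (0.90 ± 0.27, edgeR adjusted p = 0.0155 with the block) and in cluster 2 (0.93 ± 0.27, edgeR adjusted p = 0.0154 with the block), the latter not past the threshold without shared barcodes (0.85, edgeR adjusted p = 0.0553 with the block).

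**Figure D5:**
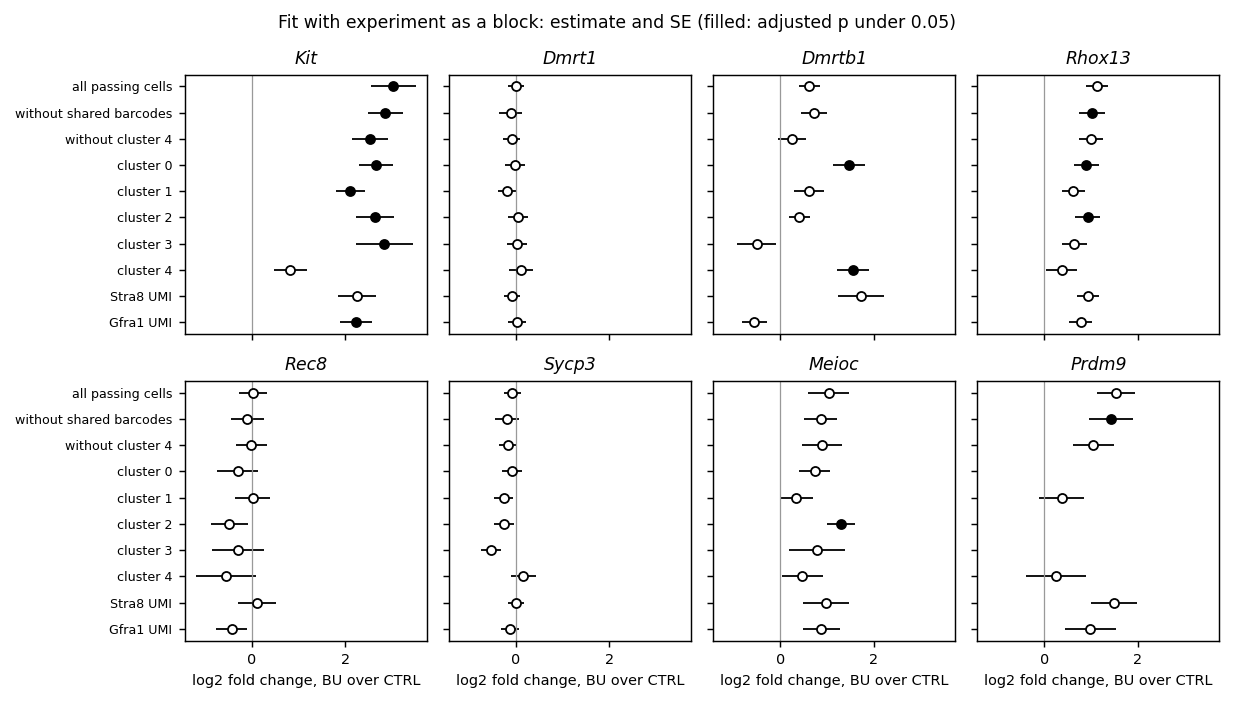
Log2 fold change of BU over CTRL with its SE for each gene in edgeR fits with the experiment as a block, over all passing cells, over sets without the cells of shared barcodes or without cluster 4, in clusters 0 to 4, and in cells with a Stra8 or Gfra1 UMI (filled: adjusted p under 0.05, no point: gene not tested there). Kit lies at 2.11 to 2.84 in clusters 0 to 3 and at 0.82 in cluster 4, while Dmrt1 and Rec8 lie on both sides of 0.

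Of the meiotic genes, Prdm9 had the clearest difference and the fewest UMIs. It was at 0.641 CPM in CTRL 1 (17 UMIs), 1.20 CPM in CTRL 2 (46 UMIs), 2.53 CPM in BU 1 (53 UMIs) and 2.63 CPM in BU 2 (138 UMIs), without overlap. Over all cells the log2 fold change was 1.54 ± 0.41 (edgeR adjusted p = 0.115 with the block). Without shared barcodes it was 1.43 ± 0.47 (edgeR adjusted p = 0.0422 with the block). In thinned cells Prdm9 was detected in 8 of 2825 and 8 of 1006 CTRL cells (0.283% and 0.795%) and in 29 of 1928 and 17 of 1169 BU cells (1.504% and 1.45%). The differentiating-like cluster held 37.4% of all Prdm9 UMIs at 11.03 CPM pooled, and each other cluster was at 1.70 CPM or below when pooled. By library it held 0% (CTRL 1), 19.6% (CTRL 2), 39.6% (BU 1) and 47.1% (BU 2) of the Prdm9 UMIs. In CTRL 1 the progenitor-like cluster held 47.1% of them. In BU 1 cluster 2 was at 4.32 CPM, beside 7.42 CPM in the differentiating-like cluster. Without cluster 4 the levels were 0.649, 0.979, 1.76 and 1.54 CPM, and the log2 fold change was 1.05 ± 0.44 (edgeR adjusted p = 0.264 with the block).

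Meioc was higher in BU by 3.88 times in experiment 1 and by 1.08 times in experiment 2. It was at 5.396 CPM in CTRL 1 and 20.9 CPM in BU 1, but at 16.7 CPM in CTRL 2 and 18.1 CPM in BU 2. Both BU levels lay above both CTRL levels, and CTRL 1 stood far below the other 3. Without shared barcodes, Meioc was at 5.37 and 15.4 CPM in CTRL and at 20.9 and 15.1 CPM in BU. The groups then overlapped, and BU 2 lay below CTRL 2. Over all cells the log2 fold change of Meioc, 1.04 ± 0.44, did not pass (edgeR adjusted p = 0.258 with the block). Without shared barcodes it was 0.86 ± 0.36 (edgeR adjusted p = 0.129 with the block). With condition only, over all cells, the estimate went to 1.83 without CTRL 2 and to 0.27 without CTRL 1. The thinned shares went from 2.41% to 9.39% in experiment 1 and from 7.36% to 4.88% in experiment 2. Pooled, Meioc was at 38.0 CPM in the differentiating-like cluster and 34.6 CPM in cluster 2, against 3.93 CPM in the SSC-like cluster. Cluster 2 was the higher of the first pair in CTRL 1 (6.05 against 3.25 CPM) and BU 2 (58.9 against 41.2 CPM), so the pooled order does not hold by library. In cluster 2 it rose by 1.30 ± 0.29 on the log2 scale (edgeR adjusted p = 0.000683 with the block), from 6.05 and 43.4 CPM in CTRL to 31.8 and 58.9 CPM in BU, although the groups overlap. The thinned share in cluster 2 was 2.75% in CTRL 1 and 13.8% in BU 1, but 19.0% in CTRL 2 and 8.25% in BU 2. Cells with Meioc held Gfra1 less often in 4 of 4 libraries (log2 odds ratio -0.83 to -0.55), and within clusters 0, 1 and 3 in 3 of 4 (-1.17, -0.45 and -0.36, with 0.23 in BU 2).

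Sycp3, although known for the meiotic axis, was found in a large share of cells in every library. It was at 161 CPM in CTRL 1, 207 CPM in CTRL 2, 162 CPM in BU 1 and 175 CPM in BU 2, with BU inside the range of CTRL. The log2 fold change was -0.09 ± 0.18 (edgeR adjusted p = 0.838 with the block). Without shared barcodes it was -0.19 ± 0.25 (edgeR adjusted p = 0.733 with the block). A Sycp3 UMI was in 54.2% and 58.5% of thinned CTRL cells and in 52.2% and 49.1% of BU cells. These shares were lower in BU without overlap, and the exact permutation p was 0.3333, the smallest possible. Pooled levels were 147 to 289 CPM in clusters 0 to 4, lowest in the SSC-like and highest in the differentiating-like cluster.

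Rec8 was low in spermatogonia and did not differ detectably. It was at 6.79 and 7.25 CPM in CTRL and at 5.53 and 8.61 CPM in BU, with the CTRL values inside the BU range (log2 fold change 0.01 ± 0.30, edgeR adjusted p = 0.985 with the block). Without shared barcodes, Rec8 was at 6.81 and 4.83 CPM in CTRL and at 5.55 and 5.72 CPM in BU. There the BU values were inside the CTRL range (-0.10 ± 0.36, edgeR adjusted p = 0.917 with the block). The thinned share was between 3.11% and 3.19% in all 4 libraries. Its highest pooled levels were 56.0 CPM in the larger somatic-like cluster and 33.6 CPM in the spermatid-like cluster, against 3.06 to 7.89 CPM in clusters 0 to 4. The spermatid-like cluster held 45.3% and 52.5% of the Rec8 UMIs of CTRL 2 and BU 2 but 9.44% and 3.45% of those of CTRL 1 and BU 1. Cells with Rec8 still carried Stra8 more often in 4 of 4 libraries. In BU 1, 66.7% of the 60 Rec8-positive cells held a Stra8 UMI against 31.4% of the others, and the log2 odds ratios were 1.22, 1.59, 2.11 and 0.46 in CTRL 1, CTRL 2, BU 1 and BU 2.

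Co-expression with Stra8 differed among the genes. The log2 odds ratio was above 0 in all 4 libraries for Kit, Dmrt1, Rhox13 (0.21 to 1.17), Rec8 and Sycp3 (0.13 to 1.06), and took both signs for Dmrtb1, Meioc and Prdm9. Within clusters 0, 1 and 3 it remained above 0 in all 4 libraries for Kit, Rhox13 (0.08 to 0.81) and Rec8 (1.07 to 2.31), and took both signs for Dmrt1 and for Sycp3 (-0.08 to 0.64). Among pairs of the 8, the mean log2 odds ratio was highest for Kit with Prdm9 (1.74 ± 0.85, SD over 4 libraries). That rank does not show co-expression in CTRL. There, 0 of 22 (CTRL 1) and 0 of 32 (CTRL 2) Kit-positive cells held a Prdm9 UMI. The CTRL values of 2.87 and 0.81 were above 0 only through the 0.5 added to each count of cells. In BU 1 it was 8 of 219 cells (1.66) and in BU 2 it was 4 of 116 (1.62). Kit with Dmrtb1 (1.42 ± 0.64) and Kit with Rhox13 (1.12 ± 0.59) followed, both above 0 in every library. In CTRL 1 the value for Dmrtb1 rests on 2 of 22 Kit-positive cells (9.09%, against 6.96% of Kit-negative cells). Pairs of the 8 were not examined within clusters 0, 1 and 3. Cells with UMIs of at least 4 of the 8 genes made up 1.27% and 1.29% of CTRL cells and 9.65% and 5.90% of BU cells after thinning. With Dmrt1 and Sycp3 set aside, 3.12% and 4.67% of CTRL cells and 15.2% and 10.0% of BU cells held at least 2 of the remaining 6. All cells in these odds ratios had the same depth, and cells of a library are not replicates.

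Other genes of the same processes were read from the same fit over all cells, where 1.49% of genes passed with the block. Without shared barcodes 9.14% of genes passed with the block. These lists too were chosen with earlier results of these data known, so their counts cannot be weighed against those shares. Of 16 genes of differentiation entry, Stra8 (log2 fold change 1.27, edgeR adjusted p = 0.0401 with the block) and the cyclin Ccnd2 (1.23, 0.0298) rose. The retinoic acid receptor Rarg (-1.80, 0.0355), the RNA-binding Nanos3 (-1.69, 0.0289), Lin28a (-1.75, 0.0289) and the transcription factor Sohlh1 (-1.01, 0.0466, named beyond the naming rule) fell. Stra8 was at 64.0 and 39.4 CPM in CTRL and at 163 and 86.1 CPM in BU. Gfra1 rose as well (31.3 and 31.8 CPM in CTRL, 83.0 and 71.8 CPM in BU, log2 fold change 1.32 with the block, edgeR adjusted p = 0.0431). The block calls of Stra8 and Gfra1 were lost with doublets removed (edgeR adjusted p = 0.0619 and 0.0638). They were also lost with cells under 10% mitochondrial UMIs (edgeR adjusted p = 0.0567 and 0.0599). The 16 genes had a median log2 fold change of -0.18, beside 0.04 over all genes tested.

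Over all genes tested, 9261 of 17354 had a positive log2 fold change with the block. Of 18 genes of KIT signalling, 0 passed with the block and 13 had a positive log2 fold change (median 0.33). Without shared barcodes, where 9.14% of all genes passed with the block, 1 of the 18 did, the kinase Src (-1.07, edgeR adjusted p = 0.0252 with the block). Of 6 further DMRT genes tested 0 passed, and Dmrt3 passed without shared barcodes (1.31, edgeR adjusted p = 0.00804 with the block). Of 13 further Rhox genes tested, Rhox2a (1.74, edgeR adjusted p = 0.0342 with the block) and Rhox2f (2.46, 0.0289) rose and Rhox10 (-1.44, 0.0355) fell. Without shared barcodes 6 passed as higher and 2 as lower. The Rhox2 copies are close to identical, so how reads were split among them is uncertain. Of 20 genes of the meiotic cohesin and axis, 0 passed and 15 had a positive log2 fold change (median 0.56), and the cohesin subunit Smc1b passed only without shared barcodes (0.88, edgeR adjusted p = 0.0171 with the block). Of 21 genes of meiotic recombination 0 passed (median 0.14). Without shared barcodes, Psmc3ip (0.80, edgeR adjusted p = 0.0486 with the block) was higher and Rnf212 (-1.17, 0.00928) lower.

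Over the 24 sums of a cluster and a library with at least 20 cells, the genes whose log2(CPM + 1) was most like that of Kit were Snap29, Cdc25a and H1fx (Pearson r 0.86, 0.86 and 0.85, among 9744 genes). Those of Rhox13 were Mms22l, Psmb7 and Mcm2 (0.99, 0.97 and 0.97), and those of Dmrtb1 were Dll3, Spag4 and Ly6k (0.95, 0.94 and 0.93). Dmrt1 was most like Fbl, Nmt2 and Prkar2b (0.98 each) and Sycp3 most like Tex101, Ckap2 and Cdca8 (0.96, 0.95 and 0.95). Rec8 was most like Ergic3, Dhrs1 and St5 (0.94, 0.94 and 0.93), Meioc most like Pom121, Pde3b and Baz1a (0.84, 0.84 and 0.83) and Prdm9 most like Cul5, Uaca and Hist1h2aa (0.83, 0.82 and 0.77). The sums share libraries and differ in depth, so these values describe the ranking only.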

How the data were processed

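A_undiff single-cell RNA-Seq was read from 4 libraries. For every library the authors deposited a gene-by-cell matrix of UMI counts, which is Cell Ranger 3.0.2 output per the file headers and was aligned to mm10 per the paper, while the submitters' processing notes name GRCm39. The paper gives kit version 2 throughout and the labels give 3.1 for experiment 2. Sequencing gave 21136369 to 53579969 UMIs per library, and with n = 2 the number of libraries limits precision. No label ties a library to 1 animal. The libraries of a group differ in their pool of 3 mice, experiment, kit and lane. With condition only, p-values measure the spread over all of these together. With the block they measure how far the difference between BU and CTRL varied between the 2 experiments. The edgeR fits also share variance across genes, so small p-values rest in part on other genes.

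The members and lists were chosen with earlier results of these data known. Genes were matched by identifier. Cells were clustered with Seurat 5.3.0 (R 4.3.3, 30 components, 1966 variable genes, resolution 0.2). Clusters were named from marker means, at least 0.5 on the log2 scale, unless shallow in a library with none of those markers leading. Doublets were marked with scrublet in scanpy 1.11.5 at 0.8% per 1000 cells (132 cells), since its own threshold marked 0.200%, and were removed only as an alternative. Cells were thinned to 5000 UMIs, which left out 80 to 276 cells per library.

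Summed counts were tested with edgeR 4.0.16 (filterByExpr, TMM, quasi-likelihood, Benjamini-Hochberg at 0.05), condition only. The step was tested on simulated data. The labels tie each experiment to 1 lane and kit, so the numbers pair libraries. Over genes, CTRL 1 and BU 1 deviated together from the means of their groups (correlation 0.779), and the replicate block took the common coefficient of variation from 0.527 to 0.223. DESeq2 1.42.0, scaling, filters, cell sets and libraries left out were alternatives. Sets without shared barcodes, without cluster 4 and within clusters were added after seeing the data. Intervals are exact binomial at 95%.

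Named genes were the 8 members, Stra8 and Gfra1, for each member the 3 genes with the highest Pearson correlation over clusters and libraries (mean of at least 10 CPM), and at most 4 genes per list past the threshold. Figures used matplotlib 3.10.9.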

Additional observations from a re-analysis of the deposited data

Results flagged for a closer look

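For 4 of the genes the difference of BU minus CTRL had opposite signs in the 2 experiments. With 1 library per group and experiment, these differences between experiments were not tested. Meioc gave 6.98 percentage points of cells with a UMI at 5000 UMIs in experiment 1 and -2.48 in experiment 2. Dmrt1 gave -0.278 and 0.231 percentage points, and 5.30 and -13.6 CPM, in experiments 1 and 2. Sycp3 gave 1.02 and -31.2 CPM, and Rec8 -1.26 and 1.36 CPM.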

How the results depend on the processing

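With 2 libraries per group and condition as the only term, 0 genes were called over all cells, and the calls came with the replicate block, which pairs the libraries of an experiment. With the block 258 genes and 1 of the 8 members were called, 110 and 0 members under 10% mitochondrial UMIs, 32 and 0 with doublets removed, 1538 and 4 without the somatic-like and spermatid-like clusters, 1557 and 3 without shared barcodes, 298 and 1 without cluster 4, 1691 and 4 in clusters 0, 1, 3 and 4, 1543 and 2 without cluster 4 and shared barcodes, 877 and 3 without somatic-like and spermatid-like clusters and shared barcodes, and 917 and 1 after thinning. DESeq2 called 112 and 1. These fits tested 14398 genes (thinned) to 17354 genes (all cells). Leaving out 1 library with condition only gave 0 to 96 genes (33 without BU 1, 96 without BU 2) and 0 to 1 members, where a lone library is assumed to vary like the other group. The number of calls thus depends on the cells used, and the cause was not tested.

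In cells with a Stra8 UMI the block gave 196 genes and 1 member without shared barcodes (14342 tested) and 145 genes after thinning (12901 tested). In cells with a Gfra1 UMI it gave 476 genes and 1 member (15127 tested), 395 and 1 without cluster 4 (15025 tested), and 41 without shared barcodes (14639 tested). In clusters 0 to 4 the block called 1413, 378, 1132, 259 and 123 genes with 3, 1, 3, 1 and 1 members. The genes tested there were 13582, 13163, 13216, 10950 and 9824. Without shared barcodes it called 948, 308, 866, 244 and 130 genes with 3, 1, 2, 1 and 1 members. Those were out of 13418, 13115, 12778, 10949 and 9807 genes tested.

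Some estimates changed sign. Leaving out 1 library moved the log2 fold change of Dmrt1 between -0.48 and 0.26, Dmrtb1 between -0.32 and 1.46, Sycp3 between -0.25 and 0.0462 and Rec8 between -0.30 and 0.16. Rec8 (0.04 over all cells) was -0.23 without somatic-like and spermatid-like clusters (-0.20 with the block), -0.15 without shared barcodes (-0.10), -0.11 in clusters 0, 1, 3 and 4 (-0.0711), -0.21 without cluster 4 and shared barcodes (-0.16), -0.19 without somatic-like and spermatid-like clusters and shared barcodes (-0.16), -0.0928 thinned (-0.10), -0.015 without cluster 4 with the block, -0.0585 with DESeq2 and -0.0595 with relative log expression scaling. In cells with Stra8, Dmrt1 was 0.014 without shared barcodes (0.015 with the block), Sycp3 0.0814 (0.0871) and, thinned, 0.14 (0.15), and Rec8 0.10 with the block and 0.12 without cluster 4. In cells with Gfra1, Dmrt1 was -0.0269 (-0.0356 with the block) and Dmrtb1 0.0078 without shared barcodes, and Dmrtb1 0.33 (0.44) thinned. Within clusters, Dmrt1 without shared barcodes was 0.019 (0.024 with the block) in cluster 0 and -0.0641 (-0.0472) in cluster 2, and Rec8 was 0.010 in cluster 1 with the block.

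For shares of cells, BU minus CTRL without thinning was 3.96 percentage points for Dmrt1, 1.01 for Rec8 and 2.76 for Sycp3. Dmrt1 was 0.0496 under 10% mitochondrial UMIs. Rec8 was 0.753 at 3000 UMIs, 0.0384 for at least 2 UMIs, 0.327 and 0.186 with other random starts and 0.139 without shared barcodes. Leaving out 1 library gave -6.58 to 6.54 for Dmrt1 and -0.224 to 4.72 for Meioc. Mean log2 odds ratios without thinning were 2.53 for Dmrt1 and 1.95 for Sycp3 with Stra8, 0.43 for Meioc and 1.09 for Prdm9 with Stra8, and 1.03 for Dmrt1, 0.86 for Rhox13, 0.85 for Sycp3 and -0.36 for Meioc with Gfra1. Meioc with Gfra1 was -0.52 at 3000 UMIs and -0.57 without cluster 4, Rec8 with Gfra1 0.38 at 3000 UMIs, and Dmrt1 with Stra8 0.30 without somatic-like and spermatid-like clusters. The log2 fold change of Kit was positive in every fit over all cells.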
